A study of Mus musculus with 24 samples.

Results

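MIN6 cells that overexpress miR-146a-5p were compared with MIN6 cells that carry a scrambled sequence, both after exposure to proinflammatory cytokines (OE+Cy against Scr+Cy). MIN6 is a mouse insulinoma line that makes and stores insulin and serves as a model of the β cell. The comparison took the 8 of 24 RNA-seq libraries that the labels place in these groups, with 4 libraries on each side. The cells of all 8 libraries had been kept for 24 h with a mix of IL-1β (5 ng/ml), TNFα (10 ng/ml) and IFNγ (100 ng/ml). The stable lines were made with lentiviral vectors and each was expanded from single clones, so an effect of the insert and a difference between clones cannot be told apart. The backbones differed as well, since the OE line carried a shMIMIC vector with a red reporter (Turbo RFP) and the Scr line a miRZip vector with a green one (copGFP). The same lines without cytokines (OE and Scr) and the line with an antisense inhibitor under cytokines (ZIP+Cy), 4 libraries each, are used below for reference. Neither labels nor methods say that replicates were separate cultures, so the p values measure the spread between libraries, which may be technical. In bulk RNA, fewer cells of one kind and less RNA per cell cannot be told apart.

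MicroRNAs guide Argonaute proteins to messenger RNAs, mostly by pairing of the seed near their 5′ end with sites in the 3′ UTR, and lower the translation and the stability of those messengers. miR-146a is transcribed in response to NF-κB and is known as a brake on innate immune signalling, with Irak1 and Traf6, which relay signals from IL-1 and Toll-like receptors, as its classical targets. In β cells, IL-1β and TNFα signal mainly through NF-κB, whereas IFNγ signals through JAK kinases and STAT factors. Together they switch on nitric oxide synthase, chemokines and antigen presentation, and prolonged exposure ends in apoptosis.

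The microRNA and a selection of the 8 base sites in reported or predicted targets that are described further below are printed here, 5′ to 3′. The 8 base sites of Brsk2, which was called higher, and of Smad4, which was not called, are left out, as are sites of 7 bases. The mature microRNA (RefSeq, GRCm38.p6, chr11:43374435-43374456, minus strand) has its seed, bases 2 to 8, in capitals. A messenger matches the seed over 7 bases with AGTTCTC or with GTTCTCA, and over 8 bases with AGTTCTCA. The sites lie in 3′ UTRs of the GENCODE M21 annotation of mm10, and capitals mark the 8 base match.
mmu-miR-146a-5p: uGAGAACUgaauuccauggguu
Irak1, chrX:74015393-74015414, minus strand: gactcagaggtcaaAGTTCTCA
Irak1, chrX:74015377-74015398, minus strand: ttctcatgcttggaAGTTCTCA
Traf6, chr2:101697945-101697966, plus strand: ccgctctggtgttgAGTTCTCA
Traf6, chr2:101698009-101698030, plus strand: ccctggaaggcttaAGTTCTCA
Irak2, chr6:113694252-113694273, plus strand: ccggtgtctccgcaAGTTCTCA
Notch1, chr2:26459263-26459284, minus strand: caagaaaataaactAGTTCTCA
Card10, chr15:78775583-78775604, minus strand: acaccctggaatagAGTTCTCA
Numb, chr12:83794813-83794834, minus strand: agaatattttaaatAGTTCTCA
Mapt, chr11:104329105-104329126, plus strand: aagctgctttactgAGTTCTCA
Sort1, chr3:108360968-108360989, plus strand: cgaattcctagtgcAGTTCTCA

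Each library held between 27721701 and 33389240 reads assigned to genes. Replicate 1 of Scr+Cy stood apart from its group. Its profile of log2 CPM (CPM being counts scaled to the size of the library, here with TMM factors) lay at a mean Euclidean distance of 102 from the other Scr+Cy libraries, against 73.3 to 75.2 for each of those and 62.7 to 71.2 for the OE+Cy libraries. It also held transcripts of connective tissue cells, such as Dcn at 14.0 CPM, where the other 7 libraries held at most 0.0344, and 7 fibroblast markers summed to 58.7 CPM in it, with a median of 3.21 in Scr+Cy and a highest value of 1.90 in OE+Cy. Without this library the counts of higher and of lower calls given below changed by at most 1 in each gene list, except for exocytosis and epithelial surface genes, for which both counts are given. The β cell markers Ins1, Ins2, Iapp, Pdx1, Mafa and Nkx6-1 were above 100 CPM in all 8 libraries, whereas Ucn3, a marker of mature β cells, reached at most 0.241 CPM in Scr+Cy. The 8 β cell markers checked summed to 16263 to 17723 CPM in Scr+Cy and 24155 to 31377 in OE+Cy. Of the 8, 4 were called higher and 3 lower. Summed markers of acinar cells stayed at or below 0.103 CPM, those of macrophages were at 16.2 to 26.7 CPM in Scr+Cy and 5.80 to 9.11 in OE+Cy, the T cell markers listed in the data (Cd4 and Lck, 2 of 7) summed to 2.93 to 3.75 CPM in Scr+Cy and 9.08 to 12.1 in OE+Cy, and 7 duct markers were at 6.55 to 18.1 CPM in Scr+Cy against 437 to 648 in OE+Cy, with 5 of the 7 higher. Of these, Krt7 had 9.85, 6.58, 6.93 and 4.36 CPM in Scr+Cy and 443, 362, 331 and 384 in OE+Cy, while Sox9, the one called lower, had 1.11 CPM in Scr+Cy 1 and no read in the other 7 libraries.

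A gene counted as called when it differed 1.5-fold or more with an adjusted p under 0.05, and adjusted p values throughout are from edgeR's quasi-likelihood test with Benjamini-Hochberg adjustment over all 17696 genes. Of these, 4725 (26.7%) were called, 2252 higher (12.7%) and 2473 lower (14.0%) in OE+Cy. All 4 OE+Cy libraries lay above all 4 Scr+Cy libraries for 3983 genes (22.5%) and below them for 4186 (23.7%). Such shares are the background against which the counts for gene lists below are to be read, and the median log2 fold change of all genes was 0.01. Interferon-inducible genes, the guanylate-binding GTPases, chemokines, Nos2 and epithelial surface genes were among the groups with many members higher. Genes of ER stress went both ways, with 9 of 28 called higher, 4 lower and a median of -0.12. Cell cycle genes, genes of glycolysis and the TCA cycle, and cholesterol and exocytosis genes were among the groups with many members lower.

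**Figure D1:**
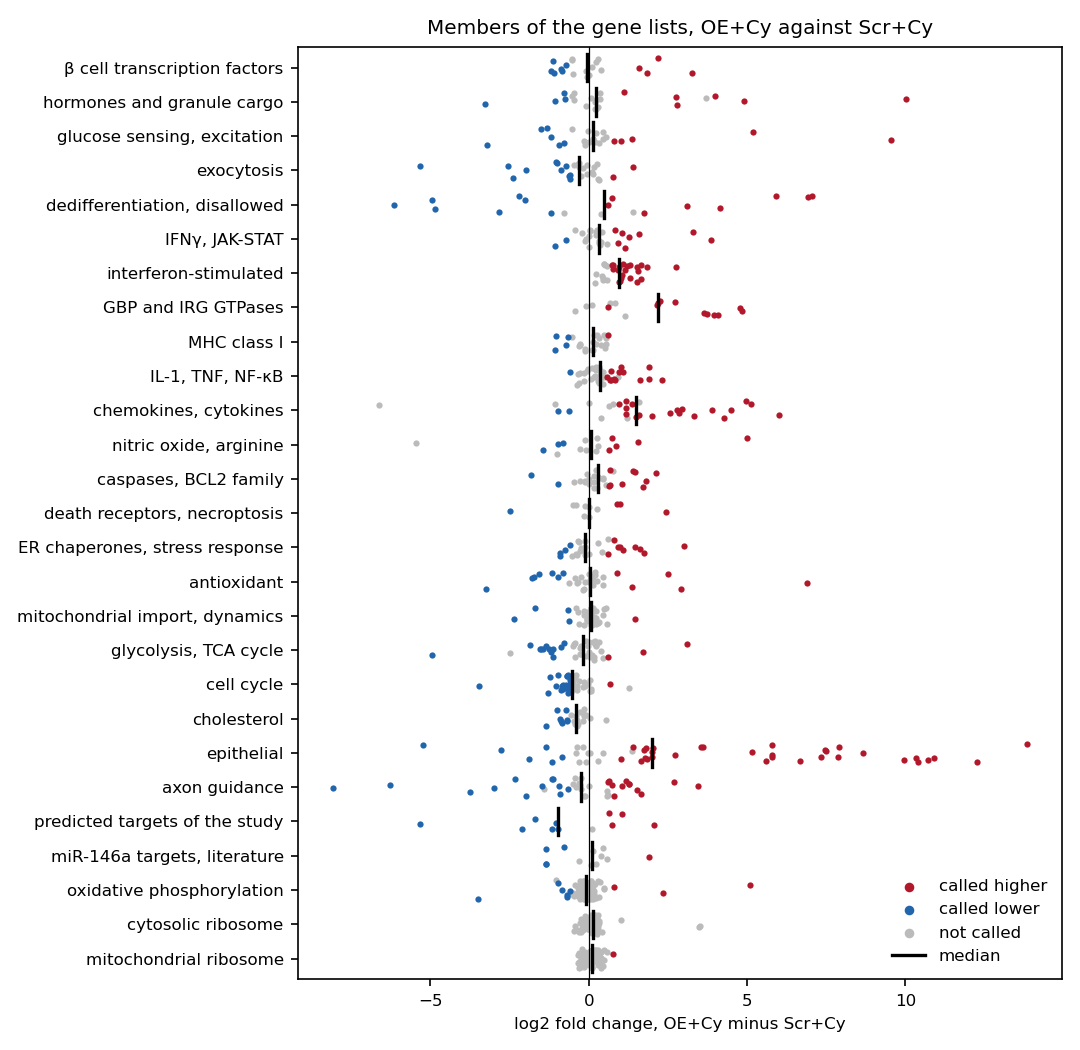
Log2 fold change (OE+Cy minus Scr+Cy, x axis) of each measured member of 27 gene lists (rows), with members called higher in red, called lower in blue and others in grey, and the list's median as a black bar. The interferon-stimulated list and the GBP and IRG GTPases lie mostly to the right of 0, with medians of 0.97 and 2.17, and the cell cycle list lies mostly to the left, with a median of -0.52.

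The interferon-stimulated genes, antiviral effectors such as Ifit and Oas proteins that are switched on by interferons, were higher in OE+Cy almost as a block. Of 31 measured, 21 were called higher and 0 lower, with a median log2 fold change of 0.97, and 28 were higher without overlap between libraries. The count of 0 lower held at an unadjusted p under 0.05 and with DESeq2, which called 20 higher. Oas3 (chr5:120753098-120777659), which makes the 2-5A messengers that activate RNase L, had 17.2, 35.6, 34.7 and 27.4 CPM in Scr+Cy and 153, 187, 225 and 218 in OE+Cy. Each OE+Cy library was above each Scr+Cy library, and the log2 fold change was 2.77 ± 0.26 (SE, n = 4 each, adjusted p = 2.96e-09). Ifit2, which binds viral RNA, rose from 100.2, 165, 193 and 161 CPM to 473, 543, 666 and 549.6, again without overlap (1.85 ± 0.21, adjusted p = 5.74e-08). The 10 members that were not called, among them Eif2ak2 (0.24), Trim21 (0.20) and Adar (0.48), had log2 fold changes of 0.20 to 0.58. Cytokines had raised all 31 genes in both lines, in comparisons that use these same libraries and in which 5.96% (Scr+Cy against Scr) and 11.8% (OE+Cy against OE) of all genes were called higher.

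The guanylate-binding proteins and immunity-related GTPases, IFNγ-inducible enzymes that attack membranes around intracellular pathogens, showed the highest median of the immune lists. Of 17 measured, 11 were called higher and 0 lower, and the median log2 fold change was 2.17. DESeq2 called 8 of them higher and 0 lower, and an unadjusted p under 0.05 gave 11 and 0. Gbp10 (chr5:105215699-105239533) had 1.48, 3.86, 4.22 and 2.19 CPM in Scr+Cy and 65.5, 84.2, 95.4 and 76.4 in OE+Cy, with a log2 fold change of 4.79 ± 0.31 (adjusted p = 3.34e-12). Gbp8 had 0.216, 1.31, 0.961 and 0.691 CPM against 18.7, 21.5, 26.8 and 23.4 (4.84 ± 0.30, adjusted p = 1.50e-11). The groups were far from overlapping for both. The members were not uniform, since Gbp2 (0.83), Gbp3 (0.67), Gbp7 (-0.42), Irgm2 (0.092) and Igtp (-0.075) were not called. Several of these genes are close copies of each other (Gbp6 and Gbp10, Tgtp1 and Tgtp2), and how reads shared by copies were divided is not given in the sources used here, so values of single members are uncertain.

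Because many genes of both lists were called higher, the promoters of list members (RefSeq, 300 bases that end shortly after the start of the gene) were searched on both strands for 2 motifs. These were the core of the interferon-stimulated response element, TTTCNNTTT, and the γ-activated site, TTCNNNGAA, which can overlap. The response element was found in 9 of 9 available promoters of the GTPases (100%), in 15 of 23 of the interferon-stimulated genes (65.2%) and in 8.10% of all 13884 promoters. The γ-activated site was found in 6 of 9, 6 of 23 and 7.08%, in the same order. Of the 11 GTPases called higher, promoters of only 4 were available, and those of Gbp8 and Gbp10 were not among them. Among genes with a promoter, the response element was held by 4 of 4 GTPases called higher and 5 of 5 not called. It was held by 11 of 15 interferon-stimulated genes called higher and 4 of 8 not called. For the chemokines and cytokines described below it was 1 of 12 called higher and 3 of 6 not called. The promoters of Gbp5 (95.6, 125, 150.2 and 107 CPM in Scr+Cy and 414, 499, 795 and 585 in OE+Cy) and Oas3 are printed in the direction of the gene with all matches in capitals, as an example with both motifs and one with the response element alone. They lie at chr3:142496684-142496983, plus strand, and chr5:120777610-120777909, minus strand (GRCm38.p6).
Gbp5: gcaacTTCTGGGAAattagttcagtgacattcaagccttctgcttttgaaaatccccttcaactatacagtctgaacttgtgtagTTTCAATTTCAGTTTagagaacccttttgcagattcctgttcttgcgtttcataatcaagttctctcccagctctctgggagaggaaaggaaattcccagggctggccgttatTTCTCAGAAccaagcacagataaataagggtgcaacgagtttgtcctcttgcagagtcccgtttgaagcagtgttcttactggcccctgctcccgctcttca
Oas3: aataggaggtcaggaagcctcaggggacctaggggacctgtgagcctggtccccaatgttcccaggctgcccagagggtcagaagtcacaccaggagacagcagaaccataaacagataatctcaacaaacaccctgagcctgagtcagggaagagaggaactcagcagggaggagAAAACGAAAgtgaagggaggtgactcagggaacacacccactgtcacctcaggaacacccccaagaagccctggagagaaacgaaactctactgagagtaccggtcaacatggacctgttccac

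The signalling genes upstream of these effectors differed less. Of 27 genes of the IFNγ and JAK-STAT pathway, 8 were called higher and 2 lower, with a median log2 fold change of 0.32. The transcription factor Irf8 showed the largest log2 fold change of the list at 3.85 ± 0.35 (adjusted p = 6.32e-09), from 0.431, 0.792, 0.755 and 1.62 CPM in Scr+Cy to 7.09, 12.7, 17.2 and 15.5 in OE+Cy. Irf1 (0.83), the receptor chain Ifngr2 (1.06) and the feedback inhibitors Socs1 (1.59) and Usp18 (1.15) were also higher. The phosphatase Ptpn6, which dampens cytokine receptors in blood cells, had 2.89, 3.20, 2.37 and 1.17 CPM against 24.2, 21.7, 23.6 and 24.8 (3.30 ± 0.22), and a log2 fold change of 3.26 in the lines without cytokines. Socs2, an inhibitor of growth hormone signalling (59.5, 64.9, 55.2 and 64.5 CPM against 34.1, 29.8, 25.2 and 27.1), and Stat5b (-0.73) were the genes called lower.

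Genes of antigen presentation by MHC class I were called at a share near that of all genes. Of 23 genes, 1 was called higher and 4 lower (21.7% in all, against 26.7% of all genes), and the median was 0.12. Without cytokines 1 was higher and 9 were lower in OE (median -0.13), where 10.4% of all genes were higher and 13.4% lower. The interaction was positive for 9 and negative for 5, where it was positive for 9.64% and negative for 10.3% of all genes. With the replicate number as a block within each line it was positive for 12 and negative for 6. Without Scr+Cy replicate 4, 3 were called in all. H2-K1 had 3188, 3581, 3607 and 3109 CPM in Scr+Cy and 2328, 3115, 3252 and 3611 in OE+Cy, and the groups overlapped. Tapbpl, an editor of the peptide cargo of class I molecules, was the gene called higher (0.62 ± 0.10, adjusted p = 1.14e-05), and without Scr+Cy replicate 4 its log2 fold change of 0.58 fell below the fold limit. The nonclassical H2-Q7 went from 323, 346, 336 and 316 CPM to 104, 160.2, 169 and 214 (-1.03 ± 0.22, adjusted p = 0.000334), with the reservation that class I genes share much of their sequence. Calr, an ER chaperone that helps to load class I molecules, went from 2106, 2641, 2414 and 2476 CPM to 1288, 1254, 893 and 1179 (-1.06 ± 0.13, adjusted p = 3.21e-07). Both were lower in every OE+Cy library than in every Scr+Cy library.

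**Figure D2:**
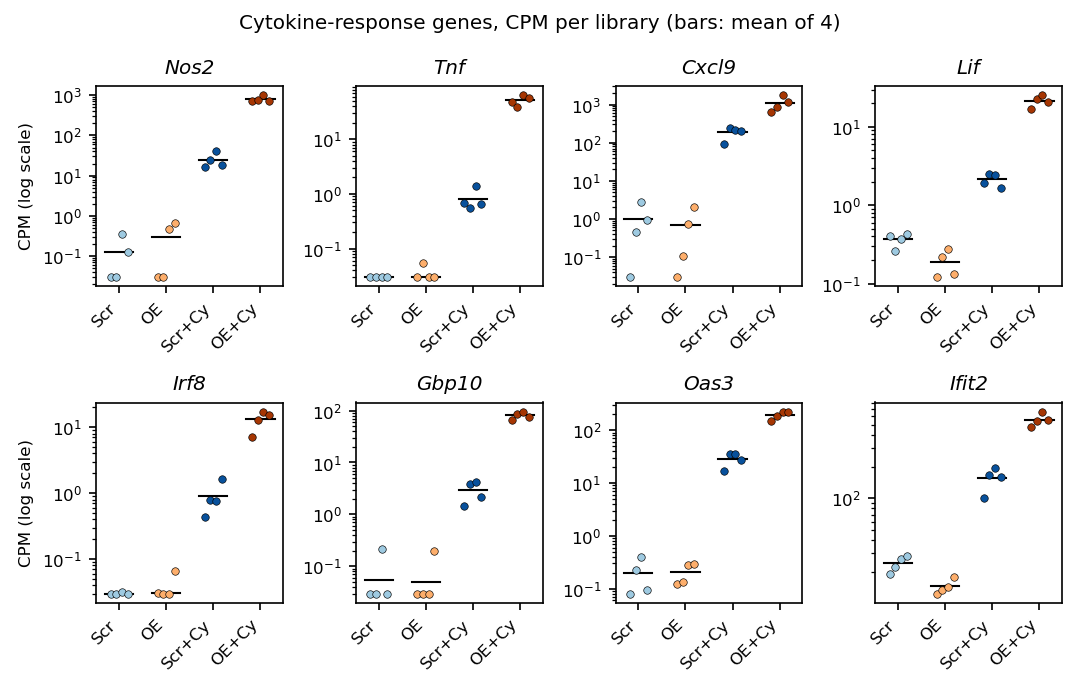
CPM per library (log axis) of 8 cytokine-response genes in Scr, OE, Scr+Cy and OE+Cy, with 4 libraries a group as points and the mean as a bar, and values under 0.03 CPM drawn at 0.03. In all 8 panels the 4 OE+Cy libraries lie above the 4 Scr+Cy libraries, while the untreated lines lie below both.

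Genes of the IL-1, TNF and NF-κB pathway, through which the other cytokines of the mix act, were more often higher than lower, mostly by modest amounts. Of 40 measured, 13 were called higher and 1 lower, and 21 were higher without overlap. Irak2, a kinase of the IL-1 receptor complex that is also a reported target of miR-146a, had 3.54, 3.96, 3.09 and 4.02 CPM in Scr+Cy and 9.83, 14, 19.8 and 11.1 in OE+Cy (1.90 ± 0.18, adjusted p = 2.20e-09). Nfkbiz, a nuclear cofactor of NF-κB, had 29.7, 19.4, 22 and 18.1 CPM against 101, 59.3, 90.8 and 80.2 (1.89 ± 0.15, adjusted p = 2.18e-10). In both, the groups did not overlap. The adaptor Myd88 (0.84), the subunit Rela (0.71), the inhibitor of apoptosis Birc3 (1.61) and the NF-κB inhibitors Nfkbia (0.59) and Nfkbie (0.80) were higher as well. The deubiquitinating enzyme Tnfaip3 (0.46) and the receptors Il1r1 (-0.07) and Tnfrsf1a (-0.15) were not called. Traf5 was called lower at a log2 fold change of -0.59, which is at the fold limit, and 5 of the 8 fits that left out 1 library and DESeq2 did not call it.

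Secreted cytokines and chemokines, which recruit immune cells to the islet, were higher with larger fold changes. Of 29 measured (38 listed), 19 were called higher and 2 lower, with a median log2 fold change of 1.5, or 1.37 with the 7 members that had at most 3 reads in every library of a group set to the bound that 3 reads allow. Tnf (chr17:35199367-35202007) was at 0.677, 0.551, 1.37 and 0.661 CPM in Scr+Cy and at 48.4, 39.4, 64.5 and 56.4 in OE+Cy. The lowest OE+Cy library was thus far above the highest Scr+Cy library, and the log2 fold change was 6.0 ± 0.32 (adjusted p = 1.09e-12). Its interaction with the state without cytokines did not pass (3.78, adjusted p = 0.969). Without cytokines 6 members of the list were higher and 5 lower in OE, where 10.4% and 13.4% of all genes were. The interaction was positive for 4 members and negative for 0, where it was positive for 9.64% of all genes. Lif, a cytokine of the IL-6 family, went from 1.91, 2.51, 2.44 and 1.68 CPM to 16.9, 22.4, 25.5 and 20.5 (3.32 ± 0.20, adjusted p = 1.38e-12). Cxcl9, an IFNγ-inducible attractant of T cells, had 94.4, 238, 220.0 and 201 CPM in Scr+Cy, where replicate 1 was lowest, and 641, 839.6, 1765 and 1166 in OE+Cy (2.55). Ccl2, which attracts monocytes, had 13.9, 20.4, 28.1 and 12.2 CPM against 70.9, 67, 92.6 and 65.4 (1.99). Cxcl10 (1.22, adjusted p = 0.0898) did not pass the test although its libraries did not overlap. Il1b (-0.64) and Ccl25 (-0.98), both below 4 CPM in these libraries, were the members called lower, and Il1b was at 2.80, 2.58, 3.26 and 3.72 CPM in Scr+Cy and 1.95, 2.03, 2.08 and 1.88 in OE+Cy.

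Nitric oxide, made from arginine by the inducible synthase, is a mediator of cytokine damage in rodent β cells. The synthase gene Nos2 (chr11:78920787-78960226) was at 16.8, 24.3, 40.9 and 17.9 CPM in Scr+Cy and at 704, 741, 1008 and 712 in OE+Cy. Every OE+Cy library was far above every Scr+Cy library, and the log2 fold change was 4.99 ± 0.42 (adjusted p = 5.42e-10). Without cytokines Nos2 was near 0 in both lines (0.124 ± 0.156 CPM in Scr and 0.295 ± 0.317 in OE, SD, n = 4), and its interaction did not pass (3.74, adjusted p = 0.287). Gch1, which makes the cofactor of the synthase, rose from 57.0, 59.4, 52.6 and 54.9 CPM to 111, 106, 98.7 and 92.0 (0.87 ± 0.074, adjusted p = 6.64e-10), and the arginine transporter Slc7a1 was higher (0.75). The other transporter, Slc7a2, was lower (292, 291, 266 and 271 CPM against 103, 115, 105 and 91.8, -1.44 ± 0.11), as was Ddah2, which degrades a natural inhibitor of the synthases (-0.97 ± 0.23, from 5.85 ± 1.53 to 2.98 ± 0.804 CPM). In all, 5 of 16 genes of this list were called higher and 3 lower, and the median was 0.07.

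Genes of apoptosis were called higher more often than lower, without a common direction. Of 29 measured caspases and BCL2 family members, 9 were higher and 2 lower (median 0.29). Casp4, which senses bacterial lipopolysaccharide, rose from 6.22, 8.61, 8.58 and 5.44 CPM in Scr+Cy to 21.9, 29.2, 41.1 and 32.7 in OE+Cy (2.12 ± 0.31). Bid, the BH3-only protein that links death receptors to mitochondria, rose from 16.8, 15.4, 19.0 and 14.2 CPM to 47.8, 51.3, 64.6 and 52.1 (1.72 ± 0.12, adjusted p = 2.84e-11), and Bbc3 (0.67), Bmf (1.38) and the initiator Casp8 (1.06) were higher too. The antiapoptotic Bcl2 fell from 24.2, 25.3, 26.8 and 25.6 CPM to 12, 13.5, 13.8 and 13 (-0.96 ± 0.073). Bax (0.0035), Bcl2l1 (0.17) and Mcl1 (0.24) were not called. Of 11 genes of death receptors and lytic death, 3 were higher and 1 lower, among them Ninj1, which ruptures the membrane of dying cells (19.4, 20, 20.4 and 19.2 CPM against 44.0, 36.5, 40.4 and 36.8, 1.0 ± 0.10), and the receptor Tnfrsf21 (0.90 ± 0.17).

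Genes of the ER stress list went in both directions. Of 28 measured, 9 were called higher, 4 lower and 15 not called, with a median log2 fold change of -0.12. Among all genes 12.7% were called higher and 14.0% lower, so the share of lower calls was close to that of all genes. The 9 were Eif2ak3, Atf4, Atf3, Ddit3, Trib3, Chac1, Asns, Ppp1r15a and Sesn2, which are known from the integrated stress response that runs through phosphorylated eIF2α. The 4 were Dnajc3, Sdf2l1, Pdia6 and Manf, which encode chaperones or their partners in the ER lumen. Members of both kinds were among those not called, such as Ddit4 (0.61), Atf5 (0.28), Hsp90b1 (-0.34) and Dnajb9 (-0.29). Atf3 went from 4.87, 6.54, 7.82 and 7.12 CPM to 49.8, 51.8, 59.1 and 52.3 (3.02 ± 0.17, adjusted p = 3.60e-13) and Trib3 from 18.4, 18, 24.5 and 22.5 to 50.9, 74.6, 87.5 and 64.6 (1.73 ± 0.27, adjusted p = 6.42e-06). The proapoptotic factor Ddit3 (CHOP) had 18.6, 26.6, 27 and 25.4 CPM against 44.0, 75.9, 83.9 and 63.9 (1.46). Each of these was higher in all 4 OE+Cy libraries. In the other direction, Pdia6 had 679.6, 797, 733 and 843 CPM against 491, 438, 295 and 403 (-0.91 ± 0.15) and Sdf2l1 had 128, 149.6, 134 and 149.8 against 87.2, 77.2, 53.9 and 81.7 (-0.90 ± 0.17). Hspa5 (BiP), the main chaperone of the ER, was lower in every OE+Cy library but below the fold limit (-0.42). Without cytokines Pdia6 (0.43) and Sdf2l1 (0.98) had differed in the opposite direction, and the difference between the states was significant for both (adjusted p = 0.000119 and 9.63e-06).

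The transcription factors that keep β cell identity were divided. Of 20, 6 were called lower, 4 higher and 10 not called. Pdx1 (chr5:147270097-147275848), which activates the insulin genes, had 766, 750.3, 783 and 774 CPM in Scr+Cy and 354, 332, 307 and 355 in OE+Cy (-1.19 ± 0.062, adjusted p = 7.48e-14). Mafa, a factor of mature β cells, had 880.1, 786, 647 and 849.8 CPM against 378, 413, 268 and 372 (-1.14 ± 0.11, adjusted p = 6.47e-09). Both sets of libraries were well apart, and Nkx6-1 (-0.89), Isl1 (-1.09), Pax6 (-0.70) and Mnx1 (-0.85) were lower too. Rfx6, needed for islet cell development, rose from 15.2, 16.5, 17.0 and 13.7 CPM to 61.2, 70.5, 82.5 and 71.9 (2.20 ± 0.09, adjusted p = 1.04e-15), and Mlxipl (ChREBP), which responds to glucose, from 63.8, 53.4, 61.0 and 49.5 to 156, 148, 171 and 215 (1.6 ± 0.13). Pdx1 (-0.39) and Mafa (-0.55) had been below the fold limit without cytokines, and for both the difference grew with cytokines (interaction -0.79, adjusted p = 1.82e-06, and -0.59, adjusted p = 0.00919).

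While Pdx1 and Mafa were lower, hormone genes were not lower as a group. Of 23 genes of hormones and granule cargo, 6 were higher and 4 lower, and the median was 0.22 (0.19 with 4 genes near 0 reads set to their bound). Ins1 (chr19:52264297-52265009) had 683, 603, 576 and 819.7 CPM in Scr+Cy and 5001, 4475, 3471 and 5695 in OE+Cy (2.80 ± 0.15, adjusted p = 7.11e-14), a difference far larger than the spread. Ins2 had 9638, 9318, 8501 and 9606 CPM against 12743, 9742, 8592 and 12200.3, the groups overlapped, and the difference was not significant (0.22 ± 0.11, adjusted p = 0.0889). Without cytokines Ins2 had been higher in OE (10933 ± 2044 CPM in Scr and 18879 ± 938 in OE, SD, n = 4, log2 fold change 0.79), and the difference between the states was significant (interaction -0.56, adjusted p = 0.0113). The insulin genes are close copies, so reads could have been divided between them. Iapp, the amyloid polypeptide stored with insulin, was higher (5510.1, 5051, 5533 and 4908 CPM against 12740.0, 10269.8, 11367 and 10936, 1.11), and so was Slc30a8, the zinc transporter of the insulin granule (17.6, 12.5, 9.78 and 6.25 against 191, 178, 175 and 197, 4.00 ± 0.27, adjusted p = 6.45e-12). Gcg, which encodes glucagon and marks α cells, was lower (138, 190.3, 134 and 173 CPM against 29.0, 19.0, 6.44 and 10.9, -3.29 ± 0.38, adjusted p = 9.64e-08), as was the granule protein Chgb (7397, 8528, 6131 and 7367 against 5219, 3601, 2544 and 2825, -1.05 ± 0.19). Ppy, the hormone of another islet cell type, had no read in Scr+Cy while OE+Cy held 5.49, 2.98, 2.27 and 5.71 CPM, which is at least 42.3-fold more if each Scr+Cy library is given 3 reads. The hormone genes Sst (2.75) and Pyy (4.90) were called higher as well. The 3 δ cell markers in the data summed to 1.96 to 4.36 CPM in Scr+Cy and 5.43 to 10.1 in OE+Cy, and all 3 were called higher. Other α cell markers moved too, as the 5 measured ones summed to 869 to 1099 CPM in Scr+Cy and 99.7 to 372 in OE+Cy, with 2 called higher and 2 lower, and their part in the fall of Gcg was not tested.

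**Figure D3:**
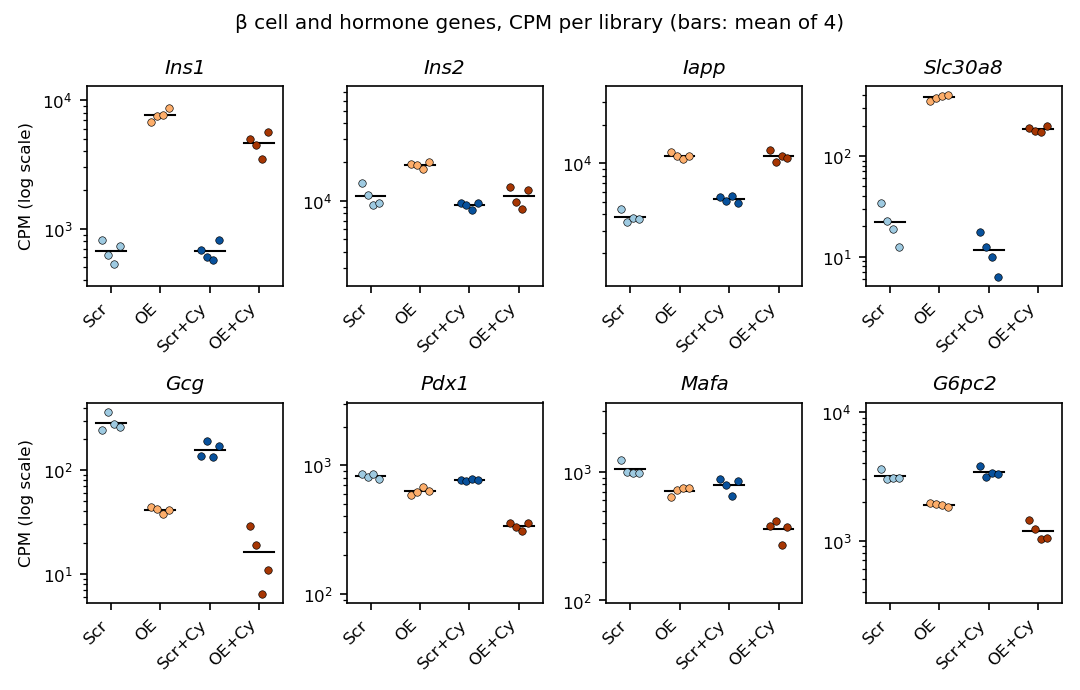
CPM per library (log axis) of 8 hormone and β cell genes in Scr, OE, Scr+Cy and OE+Cy, with 4 libraries a group as points and the mean as a bar. Ins1, Iapp and Slc30a8 are higher and Gcg lower in both OE groups, whereas Pdx1, Mafa and G6pc2 are lowest in OE+Cy, and the Ins2 libraries of Scr+Cy and OE+Cy overlap.

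Genes of glucose sensing and excitation moved both ways, with 5 of 25 higher and 6 lower (median 0.14). The glucose transporter Slc2a2 had 22.6, 14, 12.1 and 9.43 CPM against 34.1, 41.0, 40.3 and 33.8 (1.35 ± 0.27, adjusted p = 0.000151), and Ucn3, which drives somatostatin release from δ cells, had 0.0616, 0.241, 0.172 and 0.120 against 6.88, 4.71, 4.80 and 5.53 (5.19 ± 0.31, adjusted p = 1.09e-12). Both were higher in every OE+Cy library, as was the KATP channel subunit Kcnj11 (0.80). G6pc2, a β cell glucose-6-phosphatase, was lower (3788, 3136, 3322 and 3302 CPM against 1436, 1226, 1027 and 1043, -1.52 ± 0.10, adjusted p = 3.02e-12). The calcium channel gene Cacna1a fell from 27, 29.4, 28.5 and 27.5 CPM to 3.37, 3.18, 2.43 and 3.13 (-3.21 ± 0.092, adjusted p = 1.53e-18), while Cacna1d (-0.13) was not called.

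Exocytosis genes were called lower more often than higher, with 11 of 27 lower, 2 higher and a median of -0.32. This count depended on Scr+Cy replicate 1, because without it Sytl2, Unc13a, Cadps and Cplx2 were no longer called and 7 were left. Among those called in both, Cadps2, which primes vesicles, had 10.2, 13.8, 12.8 and 9.91 CPM against 0.799, 3.12, 2.75 and 2.25 (-2.39 ± 0.31, adjusted p = 6.87e-07) and the granule GTPase Rab37 had 73.5, 75.8, 79.9 and 69.2 against 35.8, 35.3, 36.1 and 36.9 (-1.05 ± 0.084). Rab3a (-1.01) and Cplx1 (-1.97) were lower as well. The calcium sensor Syt7 was higher (295, 260.1, 275 and 279 CPM against 845, 723, 683 and 652, 1.39 ± 0.092, adjusted p = 5.61e-12), and so was Vamp8 (41.5, 43.5, 44.5 and 40.6 against 63.3, 68.8, 77.2 and 78.4, 0.76 ± 0.06). The core fusion proteins Snap25 (-0.19), Stx1a (0.26) and Vamp2 (-0.25) were not called.

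Markers of dedifferentiation and genes that mature β cells normally keep off went in both directions, with 8 of 18 measured higher and 7 lower. Igfbp4, which binds insulin-like growth factors, had 5.05, 3.86, 3.71 and 3.81 CPM against 101, 73.7, 52.2 and 65.4 (4.15 ± 0.19, adjusted p = 7.90e-15), and the growth-promoting transcription factor Myc had 7.82, 5.99, 7.58 and 5.62 against 12.6, 24.3, 31.7 and 22.4 (1.76 ± 0.21, adjusted p = 1.11e-07). Ldha, the lactate dehydrogenase that is kept low in β cells, was far lower in OE+Cy, with 698, 170.0, 289.9 and 626 CPM in Scr+Cy against 6.32, 20.2, 12.9 and 18.3 in OE+Cy (-4.95 ± 0.58, adjusted p = 1.29e-07), and the thioesterase Acot7 had 6.62, 9.78, 11.1 and 9.97 against 1.01, 1.35, 1.36 and 1.55 (-2.82 ± 0.26). The lower call of Sox9 rested on Scr+Cy replicate 1 and was lost without it. Aldh1a3, a marker of failing β cells, had no read in Scr+Cy while OE+Cy held 0.591, 0.406, 0.347 and 0.577 CPM, at least 4.94-fold more by the same reckoning.

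Of 42 genes of glycolysis and the TCA cycle, 12 were called lower, 3 higher and 27 not. The 12 were Gpi1, Pfkl, Pfkm, Aldoa, Aldoc, Tpi1, Pgk1, Pgam1, Eno1 and Ldha of glycolysis with Pdk1 and Mpc1 of the entry to mitochondria. Pgk1 had 593, 261, 354 and 557 CPM in Scr+Cy and 154, 192, 175 and 177 in OE+Cy, and Pdk1, which inhibits pyruvate dehydrogenase, had 180.2, 51.5, 84.5 and 164 against 22, 36.8, 37.8 and 35.8 (-1.86 ± 0.40, adjusted p = 0.000364). The Scr+Cy libraries themselves varied in step, with replicates 1 and 4 high and replicates 2 and 3 low for Ldha, Pgk1 and Pdk1, and the same held for the lactate exporter Slc16a3 (225, 47.5, 93.2 and 187 CPM against 4.13, 17.8, 9.73 and 13.5 in OE+Cy, -3.61 ± 0.59, adjusted p = 1.48e-05) and for Bnip3, a mitophagy receptor induced by hypoxia (227, 73.4, 113 and 255 against 22.2, 39.5, 35.1 and 32.2, -2.37 ± 0.44, adjusted p = 7.18e-05). Even the lower of these libraries were above all OE+Cy libraries. Pfkfb3, which activates phosphofructokinase, was higher (47.6, 34.3, 40.1 and 64.0 CPM against 132, 155, 186 and 132, 1.70 ± 0.33, adjusted p = 0.000143), as were the hexokinase Hk2 from a level near 0 (0.154, 0.138, 0.103 and 0.0601 CPM against 0.973, 1.39, 0.884 and 0.759, 3.10) and Ldhb (0.60). The glycolytic enzymes Gapdh (-0.43), Pkm (-0.43), Pfkp (-0.091) and Hk1 (0.37) were not called. Enzymes of the TCA cycle such as Cs (0.18) and Sdha (0.22) were not called.

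**Figure D4:**
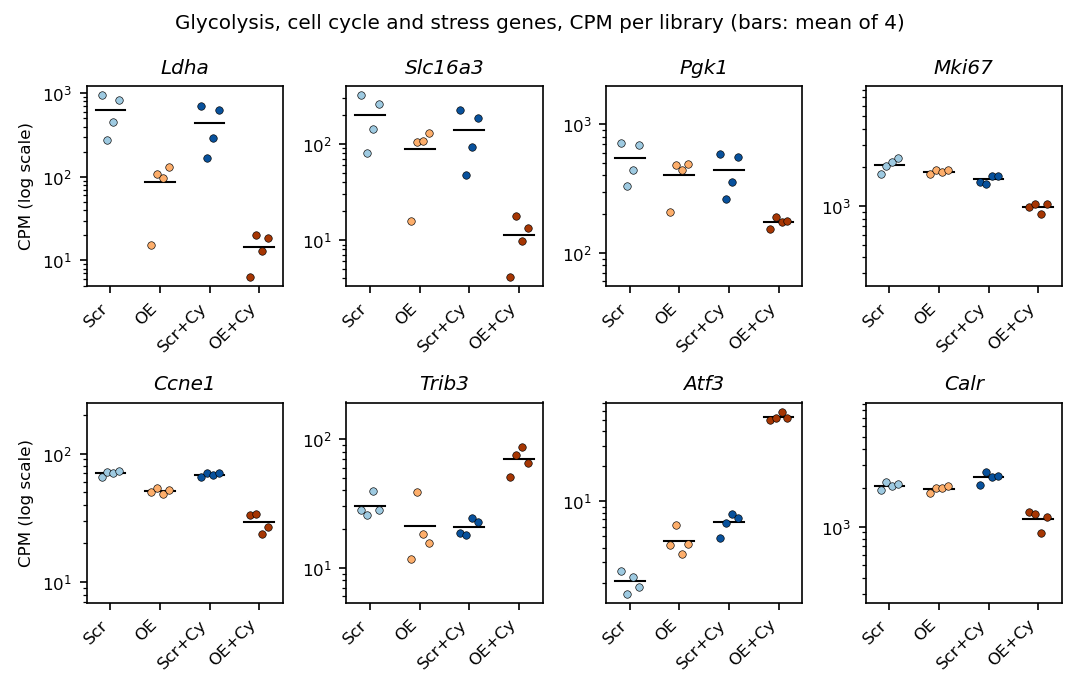
CPM per library (log axis) of 8 genes of glycolysis, cell cycle and ER stress in Scr, OE, Scr+Cy and OE+Cy, with 4 libraries a group as points and the mean as a bar. Ldha, Slc16a3 and Pgk1 spread widely among the Scr+Cy libraries and are lower in all 4 OE+Cy libraries, Mki67, Ccne1 and Calr are lower in OE+Cy, and Trib3 and Atf3 are higher.

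Mitochondrial genes, which the study followed at the level of import proteins and respiration, were seldom called. Of 43 genes of mitochondrial import, dynamics and biogenesis, 1 was called higher and 4 lower, a smaller share than among all genes. Timm23, the channel of the inner membrane translocase, had 43.4, 47.2, 47.2 and 47.2 CPM in Scr+Cy and 46.7, 47.6, 47.9 and 51.6 in OE+Cy, and Tomm20, a receptor of the outer membrane, had 110.3, 105, 91.9 and 99.2 against 96.8, 112, 109.5 and 99.4. The groups overlapped for both, and the 95% intervals of the log2 fold changes were -0.062 to 0.20 and -0.10 to 0.17. These are levels of RNA, whereas the study stained protein. It reports less TIM23 protein in OE than in Scr cells, with and without cytokines, and measured TOM20 in NOD mice and not in these lines. Ppargc1a, a coactivator of mitochondrial biogenesis, was higher (3.51, 3.58, 4.29 and 4.05 CPM against 9.97, 12.9, 10.8 and 8.99, 1.46 ± 0.16), and the fusion protein Mfn2 was lower (-0.65). Of 95 genes of the respiratory complexes and their assembly, 3 were higher and 6 lower, among them the muscle-type subunit Cox6a2 (24.6, 21.7, 18.8 and 23.8 CPM against 1.63, 2.24, 2.18 and 1.73, -3.51 ± 0.15), Atp5md of the ATP synthase (-0.84 ± 0.10) and the complex I subunit Ndufs6 (18.7, 18.3, 17.5 and 18.7 against 32.6, 30.5, 30.3 and 33.6, 0.80 ± 0.071). Of 78 mitochondrial ribosomal proteins only Mrpl36 was called (0.76 ± 0.079), and DESeq2 called 2. None of 84 cytosolic ribosomal proteins was called by edgeR (0 also at an unadjusted p under 0.05) or by DESeq2.

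Among 35 genes of antioxidant defence, 5 were called higher and 7 lower. Txnip, which binds and inhibits thioredoxin, had 16, 17.5, 15.6 and 13 CPM in Scr+Cy and 69.6, 120.5, 159 and 121 in OE+Cy (2.92 ± 0.19, adjusted p = 2.90e-12), and the glutathione peroxidase Gpx2 had 0.0924, 0.207, 0.240 and 0.150 against 19.8, 25.4, 18.5 and 19.4 (6.90 ± 0.28, adjusted p = 1.06e-15). The cystine transporter Slc7a11 was higher too (1.36). Catalase (Cat) fell from 7.58, 5.61, 6.55 and 5.68 CPM to 0.313, 0.643, 0.916 and 0.790 (-3.23 ± 0.27, adjusted p = 3.22e-10), and the metallothionein Mt2 from 464, 405, 421 and 484 to 114, 148, 134 and 137 (-1.73 ± 0.12). No library of one group reached into the other for these genes. Superoxide dismutases Sod1 (0.069) and Sod2 (0.25) were not called.

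Cell cycle genes were more often lower than higher, mostly by small amounts. Of 42, 19 were called lower and 1 higher, 32 were lower without overlap, and the median was -0.52. The largest falls among members at 5 CPM or more were in cyclins of the entry into S phase. Ccne2 had 69.4, 78.4, 71.1 and 83.8 CPM in Scr+Cy against 39.4, 30.9, 27.9 and 25.8 in OE+Cy (-1.29 ± 0.12, adjusted p = 1.34e-09) and Ccne1 had 65.2, 71.1, 67.6 and 70.6 against 33.4, 34.1, 23.5 and 27 (-1.22 ± 0.10, adjusted p = 1.14e-10). Mki67, a marker of cycling cells, went from 1546, 1491, 1727 and 1718 CPM to 977, 1035, 873 and 1035 (-0.73), and Pcna (-0.65), Cdk1 (-0.69) and Plk1 (-0.80) were lower too. Several that fell do not drive the cycle, since Cdkn1c (-3.45), Cdkn2a (-0.60), Cdkn2c (-0.80) and Cdkn2d (-0.86) encode inhibitors of cyclin-dependent kinases. The inhibitor Cdkn1a (p21) was the gene called higher (137, 119, 98.9 and 106 CPM against 214, 206, 166 and 146, 0.66 ± 0.13, adjusted p = 9.54e-05), and without OE+Cy replicate 1 it fell to the fold limit at 0.58. The replication helicase genes Mcm2 (-0.037), Mcm3 (-0.12) and Mcm6 (0.049) were not called.

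Genes of cholesterol synthesis and uptake, which SREBP2 drives, were lower or not called. Of 24, 8 were lower and 0 higher, also at an unadjusted p under 0.05 and with DESeq2, and the median was -0.39. The sterol carrier Stard4 had 174, 173, 167 and 190.1 CPM against 61.5, 72.0, 69.8 and 73.9 (-1.34 ± 0.089, adjusted p = 6.10e-12), and the reductase Tm7sf2 had 9.11, 10.1, 8.37 and 8.80 against 5.35, 4.71, 3.54 and 4.56 (-1.0 ± 0.16). Insig1, which retains the SREBP complex in the ER, was lower as well (-0.83). Without OE+Cy replicate 1, or without Scr+Cy replicate 4, 1 member was called higher.

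Many of the largest differences were in genes of the epithelial surface. The list of 48 measured genes also holds 8 mesenchymal genes, which epithelial cells usually hold low. Like the other lists, it was chosen with earlier results of these data known, so its share of calls is not independent of them. Over the whole list 32 were called higher and 6 lower, and the median log2 fold change was 2.00 (1.92 with 12 genes near 0 reads set to their bound). Of the 40 epithelial genes, 31 were higher and 2 lower (median 3.17), and of the 8 mesenchymal genes 1 was higher and 4 lower (median -0.74), a split made after the values were seen. By the rule for single genes, the 8 highest were Lad1, Krt19, Cdh13, Esrp1, Olfr1259, Ap1m2, Rab25 and Epcam. Lad1 (chr1:135818598-135833341), an anchor of the basement membrane, and the keratin Krt19 had no read in any Scr+Cy library and 45.8, 55.3, 63.6 and 71.1 and 18, 20.5, 15.9 and 24.2 CPM in OE+Cy, so that OE+Cy was at least 607-fold and 202-fold higher, counting 3 reads in each Scr+Cy library. The cadherin Cdh13 (12.5, 7.89, 4.58 and 5.62 CPM, at least 78.8-fold) and the olfactory receptor gene Olfr1259 (7.99, 7.11, 6.19 and 5.59 CPM, at least 69.2-fold) had no read in Scr+Cy either. The splicing regulator Esrp1 (101, 108, 109.5 and 88.9 CPM) had 7 reads in all of Scr+Cy, the sorting adaptor Ap1m2 (27.3, 23.6, 29.4 and 28.8 CPM) had 2 and the recycling GTPase Rab25 (34.6, 34.3, 36.2 and 39.4 CPM) had 3, which gave ratios of 1805 (876 to 4489.5), 1691 (468 to 13963) and 1492 (511 to 7236) with 95% intervals for counting error alone. Both reads of Ap1m2 were in Scr+Cy replicate 1, and without it OE+Cy was at least 276-fold higher, counting 3 reads in each library left. The adhesion protein Epcam had 0.0616, 0.0689, 0.240 and 0.0601 CPM against 111, 107, 108 and 109.9 (9.97 ± 0.16, adjusted p = 2.24e-23). E-cadherin (Cdh1) was present in both lines and went from 8.99, 4.34, 5.87 and 5.65 CPM to 290.3, 280.1, 326 and 303 (5.59).

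Not all epithelial genes followed. Tjp1, a scaffold of tight junctions, was lower (-0.84) and so was Ovol2, a repressor of mesenchymal genes (23.7, 28.1, 25.6 and 28.8 CPM against 8.44, 8.50, 5.21 and 6.35, -1.90 ± 0.14, adjusted p = 4.71e-11). Of the mesenchymal genes, the regulator Twist1 was called higher at levels near 0 in both groups (0, 0.0344, 0 and 0.0300 CPM against 0.347, 0.271, 0.158 and 0.152) and Zeb1 (-1.17), Zeb2, Vim and the matrix protein Fn1 (-2.79) were called lower. The regulator Zeb2 had 29.0, 7.61, 6.69 and 6.58 CPM in Scr+Cy and 4.45, 5.45, 4.67 and 4.89 in OE+Cy (-1.36 ± 0.36, adjusted p = 0.00268). Its call came from Scr+Cy replicate 1, the library with connective tissue transcripts, without which the log2 fold change was -0.51 (adjusted p = 0.0522). The call of the mesenchymal filament Vim was lost without that library as well, so that 4 genes of the whole list were lower. Duct markers, of which Krt19 and Krt7 are also on this list, moved with these genes as given above, and their part in the difference was not tested. In the lines without cytokines, 31 of the 33 epithelial genes called and 2 of the 5 mesenchymal ones were called in the same direction.

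The 8 lowest genes by the same rule were Slit1, Fgfr1, Amotl1, Lrch2, Crtac1, Pmp22, Ablim1 and Kbtbd11. Slit1 (chr19:41600257-41743856), a ligand that repels axons, had 396, 342, 354 and 372 CPM in Scr+Cy and 0.903, 1.63, 1.45 and 1.40 in OE+Cy (-8.08 ± 0.27, adjusted p = 2.85e-17). The growth factor receptor Fgfr1 had 6.37, 3.89, 5.22 and 6.10 CPM in Scr+Cy and 4 reads in all of OE+Cy, a ratio of 166 (64.7 to 608). The groups did not overlap for the others either. Amotl1, a partner of YAP at junctions, had 115 ± 7.2 CPM against 0.794 ± 0.217 (SD, n = 4), Lrch2 had 19.0 ± 2.53 against 0.129 ± 0.0929 and Crtac1 had 106 ± 11.8 against 0.915 ± 0.360. Ablim1, an actin-binding protein, had 15.3 ± 2.64 against 0.229 ± 0.0317 and Kbtbd11 had 51.5 ± 11 against 0.808 ± 0.354. Pmp22, a myelin and junction protein, had 109, 29.1, 25.6 and 26.4 CPM in Scr+Cy and 1.18, 0.542, 0.442 and 0.638 in OE+Cy (-6.10), and without Scr+Cy replicate 1, which held the highest level, it was still lower at -5.28 on the log2 scale, a fold change 1.76 times smaller.

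Slit1 belonged to the list of axon guidance and adhesion genes, of which 12 of 38 were higher and 12 lower. Nrcam, a neuronal adhesion molecule, had 389, 394, 348 and 384 CPM against 26.9, 31.9, 26.1 and 27.9 (-3.75 ± 0.10, adjusted p = 2.44e-19). Nrp2, a coreceptor for semaphorins and VEGF, rose from 3.94, 3.0, 5.11 and 4.24 CPM to 32.1, 42.9, 60.4 and 41.3 (3.44 ± 0.25, adjusted p = 2.38e-11), and Plxnb1, a semaphorin receptor, from 15.6, 14.8, 13.1 and 11.9 to 45.8, 41.5, 38.9 and 46.4 (1.64 ± 0.076). In each of these the groups were apart.

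Reported targets of miR-146a-5p went in both directions. Of 12, 4 were called lower and 1 higher, where 14.0% of all genes were lower and 12.7% higher, and 7 were not called (median 0.10). Irak1 (chrX:74013914-74023921), whose 3′ UTR holds 2 of the 8 base matches printed above, had 162, 165, 149 and 146 CPM in Scr+Cy and 187, 193, 166 and 177 in OE+Cy. It was thus higher in every OE+Cy library, by less than the fold limit (0.22 ± 0.063, adjusted p = 0.00567). Traf6 (chr2:101678420-101701668), with 4 such matches of which 2 are printed, had 82.7, 78.4, 76.9 and 82.1 CPM against 64.9, 65.8, 66 and 60.8 and was lower in every OE+Cy library, also by less than the fold limit (-0.31 ± 0.054, adjusted p = 3.17e-05). Irak2, with 1, was higher. The receptor Notch1, with 1, fell from 93.3, 97.0, 106 and 90.4 CPM to 34.9, 36.3, 38.1 and 43.0 (-1.34 ± 0.09, adjusted p = 6.84e-12), and the NF-κB scaffold Card10, with 1, from 6.74, 6.03, 7.41 and 7.54 to 3.37, 3.25, 2.12 and 2.25 (-1.34 ± 0.16, adjusted p = 1.98e-07). The chemokine receptor Cxcr4, with no match in the annotated 3′ UTR, was lower from a level near 1 CPM (1.08, 0.861, 0.549 and 1.08 CPM against 0.347, 0.474, 0.316 and 0.273, -1.34).

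Notch2 was called lower with overlapping libraries (5.08, 3.27, 3.95 and 2.28 CPM against 1.74, 1.59, 2.87 and 2.34, -0.77 ± 0.30, adjusted p = 0.0357), and 5 of 8 fits with 1 library left out did not call it, with log2 fold changes of -0.56 to -0.81. Numb, an antagonist of Notch with an 8 base match, was higher just under the fold limit (0.58 ± 0.058) and was called higher by DESeq2 and without OE+Cy replicate 4 or Scr+Cy replicate 3 or 4 (0.59 to 0.62). Smad4 (0.064), the RNA-binding protein Elavl1 (0.13) and Relb (0.45) were not called, and for Smad4 the 95% interval of the log2 fold change was -0.039 to 0.17.

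Of 11 genes for which the study names qRT-PCR probes, most of them predicted targets, 6 were called lower, 4 higher and 1 not, with a median of -0.98. In the study, the predicted targets were filtered by their calls in ZIP and OE against Scr, without cytokines. The functional terms they were drawn from came from all comparisons with Scr, with and without cytokines. The count is thus not independent evidence of a direction. Mapt, which encodes the microtubule protein tau, had 208, 141, 186 and 197 CPM in Scr+Cy and 44.6, 59.0, 56.6 and 65 in OE+Cy (-1.70 ± 0.16, adjusted p = 1.87e-09), and the sorting receptor Sort1 had 311, 298, 301 and 303 against 158, 151, 146 and 139 (-1.03 ± 0.059, adjusted p = 4.21e-13). Nrg1, a ligand of ErbB receptors, had 7.27, 7.71, 8.17 and 5.95 against 1.08, 1.79, 1.71 and 2.07 (-2.12 ± 0.19). Glrx (-1.16 ± 0.074) and Gpx1 (-0.98 ± 0.082), enzymes of glutathione metabolism, were lower as well, and Gpx1 had been added for its part in oxidative stress and not as a predicted target. Myrip, which links granules to the cytoskeleton, was low in both groups, with 1.14, 0.861, 0.652 and 0.571 CPM in Scr+Cy and 2 reads in all of OE+Cy, a ratio of 49.5 (13.7 to 409). Both of these reads were in OE+Cy replicate 1, and without it Scr+Cy was at least 8.41-fold higher by the same reckoning as for Ap1m2. The kinase gene Brsk2 rose from 1.94, 0.895, 0.721 and 1.5 CPM to 4.90, 5.01, 5.68 and 5.53 (2.05 ± 0.20, adjusted p = 6.14e-09) and the developmental factor Eya1 from 16.6, 15.6, 13.2 and 13.3 to 29.1, 31.1, 30.6 and 31.3 (1.06 ± 0.10). The 3′ UTR of Brsk2 holds an 8 base match, as do those of Mapt and Sort1. Perp (0.64 ± 0.087) and the repressor Rest (0.72 ± 0.23) were higher by less, and Acvr2b was not called (0.093 ± 0.12, with overlapping libraries).

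Genes with a seed match differed little from the others in their median. Of 15447 genes with an annotated 3′ UTR, 3056 had a 7 or 8 base match and a median log2 fold change of -0.03, against 0.01 for 12391 without one. Among those with a match 11.3% were called higher and 16% lower, and among those without 13.2% and 14.2%. For 671 genes with an 8 base match the median was -0.05, with 9.54% higher and 18.9% lower. The 3′ UTRs of these were longer, with a median of 2717 bases against 900 without a match, and the part of UTR length in the difference was not tested. Among genes averaging 10 CPM or more, the medians were -0.030 with a match and -0.014 without, and 15.2% of 474 genes with an 8 base match were lower and 7.59% higher, against 11.8% and 7.63% of 7323 without.

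Most of the genes called under cytokines were also called without them. In OE against Scr without cytokines, 1844 genes were called higher (10.4%) and 2376 lower (13.4%), in 8 libraries that do not enter OE+Cy against Scr+Cy. Of the 4725 genes called under cytokines, 2839 (60.1%) were called in the same direction without them, which is 67.3% of the untreated calls, and 45 in the opposite direction. Slit1, Nrcam, Ins1, Slc30a8 and Gcg were among these, as were most epithelial genes called. Few interferon-inducible genes were. Without cytokines 1 of the 31 interferon-stimulated genes was called higher in OE and 6 were called lower, and of the 17 GTPases 4 were called lower, with a median of -1.22. Oas3 (0.203 ± 0.152 CPM in Scr and 0.207 ± 0.0911 in OE, SD, n = 4) and Gbp10 (0.0547 ± 0.109 and 0.0491 ± 0.0982) were close to 0 in both lines.

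Whether the difference between the lines changed with cytokines was tested as an interaction, which gave an adjusted p under 0.05 for 1706 genes with a positive value (9.64%) and 1831 with a negative one (10.3%). Among the interferon-stimulated genes 18 of 31 had a positive value, and among cell cycle genes 30 of 42 had a negative value and 1 a positive one. With the replicate number as a block within each line, since treated and untreated libraries of a line varied together by number, 2624 genes had a positive and 3009 a negative interaction, 23 of 31 and 32 of 42 members of these lists were called in the same directions, and of the genes named for an interaction Trim34a was no longer called. Among interactions with an adjusted p under 0.05 in genes that averaged 5 CPM or more in 1 of the 4 groups, the 5 highest were for Mylk2, Ifitm3, Trim34a, H2-Aa and Tifa. Gbp8 had a larger interaction (6.35), which did not pass (adjusted p = 0.167). Tifa, an adaptor that activates NF-κB through Traf6, had 0.201 ± 0.0560 CPM in Scr and 0.282 ± 0.106 in OE (SD, n = 4), 0.493, 0.207, 0.412 and 0.390 in Scr+Cy and 6.50, 18.5, 21.3 and 23.8 in OE+Cy (interaction 5.04, adjusted p = 6.74e-05). Mylk2, a myosin kinase of muscle, had 2.19, 1.58, 2.37 and 1.35 in Scr+Cy and 7.82, 17.3, 26.8 and 9.36 in OE+Cy (interaction 5.77, adjusted p = 6.59e-05). The antiviral Ifitm3 (3.12 ± 1.29 against 23.7 ± 8.23 CPM), Trim34a (0.930 ± 0.498 against 10.8 ± 2.12) and the MHC class II gene H2-Aa (11.8 ± 3.44 against 51.3 ± 31.8) averaged below 0.5 CPM without cytokines, as did Tifa and Mylk2, so the sizes of these interactions (5.70, 5.11 and 5.07 for the first 3) depend on how few reads are treated.

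By the same rule, the 5 lowest interactions were for C4b, Sp140, Nmbr, Derl3 and Slc16a3. The complement gene C4b was at 0.577 ± 0.373 CPM in Scr and 26.1 ± 2.44 in OE without cytokines, and at 73.8, 114, 104 and 145 in Scr+Cy and 45.1, 64.9, 69.3 and 93.3 in OE+Cy. The higher level in OE was thus no longer seen with cytokines, with an interaction of -6.19 (adjusted p = 1.64e-07). Under cytokines the libraries overlapped and C4b was not called (-0.68, adjusted p = 0.0526). It was called lower without Scr+Cy replicate 1 (-0.82) or OE+Cy replicate 4 (-0.86). The same held with the replicate number as a block and when only the groups compared were fitted. Sp140, a nuclear body protein, was higher in OE in both states (5.32 without and 2.71 with cytokines, adjusted p of the interaction 0.000222), and so was the peptide receptor Nmbr (7.31 and 4.75). Derl3, a component of ER-associated degradation, was at 3.29 ± 0.588 CPM in Scr and 18.8 ± 5.46 in OE, and at 3.44 ± 0.488 and 3.44 ± 0.687 with cytokines, so that the libraries were apart without cytokines and overlapped with them (interaction -2.51, adjusted p = 4.01e-05).

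**Figure D5:**
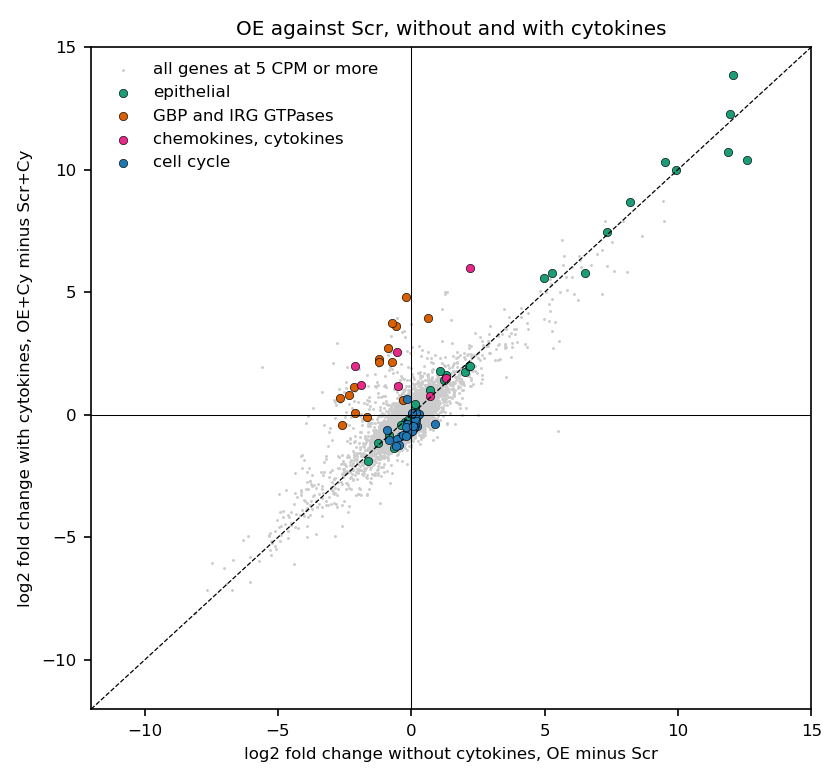
Log2 fold change with cytokines (OE+Cy minus Scr+Cy, y axis) against that without (OE minus Scr, x axis) for genes averaging 5 CPM or more, with 4 gene lists coloured and the dashed line marking equal values. Epithelial genes lie along the dashed line, while GBP and IRG GTPases lie above it and most cell cycle genes slightly below it.

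The line with the antisense inhibitor was compared with Scr+Cy as well, and 12.6% of genes were called. Both comparisons use the same Scr+Cy libraries, so their values are only given side by side. The log2 fold change against Scr+Cy was 4.99 in OE+Cy and 1.82 in ZIP+Cy for Nos2, 6.0 and 2.35 for Tnf, 3.02 and 1.04 for Atf3, and 3.44 and 1.78 for Nrp2. For Oas3 the values were 2.77 and 0.45, for Ifit2 1.85 and 0.16, for Pdx1 -1.19 and 0.047, and for Epcam 9.97 and -1.49. For Slit1 they were -8.08 and -6.10, and for Slc30a8 4.00 and 2.73. Scr+Cy and ZIP+Cy cells carry the same vector backbone, and the OE+Cy cells another.

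Since the lines are clones, the median log2 fold change was also taken by chromosome, over genes averaging 10 CPM or more. It was lowest on chromosomes 18 (-0.22, 278 genes), 2 (-0.20, 766 genes), 4 (-0.16, 604 genes), 7 (-0.15, 686 genes) and 19 (-0.13, 352 genes) and highest on chromosome 14 (0.09, 345 genes). Without cytokines, in libraries not used for these values, the medians of the same 5 chromosomes were -0.19, -0.16, -0.15, -0.13 and -0.11. In ZIP+Cy against Scr+Cy they were -0.00407, -0.00548, -0.00884, -0.02 and -0.20. Whether copy number differs between the clones was not tested.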

How the data were processed

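RNA-seq was analysed from 24 libraries of MIN6 lines in 6 groups of 4, of which 8 enter the main comparison. According to the methods and the labels, libraries were made with a KAPA mRNA HyperPrep kit, and the authors aligned the reads to mm10 with STAR and assigned them to RefSeq transcripts in Partek Flow, then dropped genes whose reads over all libraries came to less than 10. The deposited values are estimated counts per gene (30.3% of values were not whole). How reads were divided between overlapping or near-identical genes, and whether strand was used, is not given in the sources used here. The methods name STAR 2.7.3a and Partek Flow 10.0.21.0718, and the submitters' processing notes STAR 2.7.8a and Partek 11.0.24.0204. A second deposited table of normalized counts was not used. The level of the microRNA is not among the values.

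Estimated counts were rounded and tested with edgeR 4.0.16 (R 4.3.3; TMM scaling, quasi-likelihood test) over all 24 libraries with 6 group means, and p values were adjusted over 17696 genes with the Benjamini-Hochberg method. Genes were called at 1.5-fold and an adjusted p under 0.05. The interaction was called at an adjusted p under 0.05 without a fold limit. Treated and untreated libraries share a replicate number and a P65 to P68 label, which is not explained in the labels. Within the Scr and OE lines every such pair deviated together from the group means (correlations 0.16 to 0.63 over 12670 genes, each library closest to its own number), so the interaction was also fitted with the number as a block within each line. SEs are the log2 fold change divided by the root of the F statistic, and 95% intervals use Student's distribution with the 18 residual degrees of freedom. Values per library are CPM after TMM scaling, and levels are not compared between genes. A group counted as having no usable reads when every library had at most 3, which was the floor for fold bounds, and intervals for low counts are exact Poisson intervals that cover counting error only. The step was tested on simulated counts for OE+Cy against Scr+Cy over 17696 genes, where 96% of 2-fold and 99% of 4-fold changes were recovered with 4 false calls. Only 100 genes were changed at each fold, all drawn from genes with higher counts. The rates therefore do not cover genes with few reads or data with as many calls as these. DESeq2 1.42.0 and the other alternatives are given in the closing section. Sites were searched in 3′ UTRs of GENCODE M21 (mm10).

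Named genes were the 8 highest and 8 lowest called genes at 5 CPM or more in 1 group without overlap (predicted genes left out), up to 2 rises and 2 falls per list at that level, all reported targets and genes with qRT-PCR probes in the study, Ins1, Ins2, Timm23 and Tomm20, and the 5 highest and 5 lowest among the interactions called. Other genes named were chosen after their values were seen. Some genes that the rule picks are not reported here. The comparison and the lists were chosen with earlier results of these data known.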

Additional observations from a re-analysis of the deposited data

Results flagged for a closer look

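In 11 of 242 groups of 4 libraries checked (121 named genes in OE+Cy and in Scr+Cy), one library lay far from the other 3, as its gap to the nearest of them divided by the range of the group passed Dixon's critical value for 4 samples. Chance gives about 1 in 20. In Scr+Cy, 6 of 8 such values were those of replicate 1, which was highest for Ap1m2 (ratio 1.000), Pmp22 (0.958), Zeb2 (0.954) and Igfbp4 (0.888) and lowest for Timm23 (0.977) and Glrx (0.890). Replicate 3 of Scr+Cy was highest for Epcam (0.951, at 0.240 CPM) and Tnf (0.846, at 1.37 CPM). In OE+Cy, replicate 3 was highest for Nos2 (0.880), and replicate 1 was lowest for Pdk1 (0.876) and highest for Myrip (1.000, from 2 reads in all).

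For 52 named genes the difference between OE and Scr was not the same with and without cytokines (interaction in edgeR's quasi-likelihood test, adjusted p under 0.05), with 24 positive and 28 negative values on the log2 scale. With the replicate number as a block within each line, 34 had a positive and 35 a negative interaction, with 18 genes gained, among them Oas3, Gbp10, Chgb, Bnip3, Notch1 and Pdk1, and Trim34a lost. Positive values of immune and NF-κB genes were 5.70 for Ifitm3, 5.11 for Trim34a, 5.07 for H2-Aa, 5.04 for Tifa, 4.26 for Lif, 2.58 for Ifit2 and 1.91 for Irak2. Genes of cell death and stress had 2.39 for Bid, 2.26 for Trib3, 1.85 for Atf3, 0.83 for Cdkn1a, 0.55 for Perp and 0.48 for Ninj1. Redox genes had 1.64 for Cat, 1.48 for Gpx2 and 1.40 for Txnip. The other positive values were 5.77 for Mylk2, 3.71 for Nrp2, 1.43 for Pfkfb3, 1.42 for Ablim1, 1.16 for Nrg1, 0.99 for Syt7, 0.99 for Myc and 0.29 for Stat5b.

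Negative values of β cell genes were -0.79 for Pdx1, -0.77 for G6pc2, -0.71 for Ins1, -0.59 for Mafa and -0.56 for Ins2. Genes of the ER had -2.51 for Derl3, -1.88 for Sdf2l1, -1.34 for Pdia6 and -0.98 for Calr. Genes of lactate metabolism had -2.44 for Slc16a3 and -2.10 for Ldha, and cyclins had -0.77 for Ccne1 and -0.71 for Ccne2. Immune and signalling genes had -6.19 for C4b, -2.61 for Sp140, -0.84 for Card10, -0.67 for Socs2 and -0.31 for Irak1. The others had -2.56 for Nmbr, -1.0 for Cox6a2, -0.95 for Nrcam, -0.75 for Mapt, -0.46 for Stard4, -0.45 for Slc7a2, -0.43 for Eya1, -0.34 for Glrx, -0.34 for Gpx1 and -0.31 for Bcl2.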

How the results depend on the processing

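The count of called genes (4725) was 4327 with DESeq2, 4695 with DESeq2's size factors, 4183 with filterByExpr, 4414 when only the groups compared were fitted, 5052 with an unadjusted p and 4385 to 4647 with 1 library left out. The interaction count (3537) was 5601 with an unadjusted p and 2819 to 4018 with 1 library left out. Of 1573 values for the 121 named genes, 1545 kept direction and side of the limits, 17 fell below a limit, 11 passed one and 0 reversed. Calls changed for Traf5, Numb, C4b, Cdkn1a, Notch2, Tapbpl and Zeb2. Among lists, mitochondrial ribosomal proteins had 2 calls with DESeq2 and with its size factors and 1 to 2 with 1 library left out, and MHC class I had 3 to 6. With a mean of 1 CPM in place of 10, the medians of chromosomes 5 (0.0566), 15 (0.0796) and 16 (0.0872) moved by more than the spread between libraries, and the cause was not tested. Deviations of same-numbered OE+Cy and Scr+Cy libraries correlated at 0.00063 to 0.17 over 12670 genes, so the numbers were not taken to pair these libraries. With the replicate block 4827 genes were called and the interaction count was 4492. With a replicate block within each line, chosen after seeing the data, the interaction count was 5633. Depth limits statements on genes at or below 3 reads in every library of a group, for which bounds or counting intervals are given.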
